A study of Mus musculus with 46 samples.

Results

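The cytosolic ribosomal protein genes encode the proteins of the large and small subunits of the ribosome that translates nuclear messages. Members were chosen by name, as the genes whose symbol is Rpl or Rps followed by a number and by no more than a single letter a, x or l, together with Rplp0, Rplp1, Rplp2 and Rpsa. These were 82 of the 21231 genes listed in any of the 3 tables of the study. The table of subventricular zone (SVZ) tissue listed 77 members among 15695 genes, the table of sorted cells with the time course of lipopolysaccharide (LPS) listed 80 among 15285, and the table of the GLOBAL experiment listed all 82 among 19930.

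All mice were male C57BL/6 wild types, and treated mice received PLX3397, an inhibitor of the CSF1 receptor that microglia need to survive, at 600 ppm in chow. SVZ tissue came from control mice, from mice after 14 days of PLX3397 and from mice after 14 days of PLX3397 and 5 days of recovery on control chow (n = 5 each). Sorted cells were CD11b+CD45int myeloid cells from brain hemispheres. The first set of sorted cells held control microglia and white matter (WM) repopulating cells, the latter from mice with 14 days of PLX3397 and 28 days of recovery. Both were taken without LPS (0 hr) or at 6 hr or 24 hr after 0.33 mg/kg LPS given into the peritoneum. These mice were 2 months old when treatment began, so cells were taken at a greater age. For mice of the SVZ experiment the methods give only a general age of 1.5 months, without the point at which it applies. Control mice received vehicle. Control microglia had 3, 5 and 4 libraries at 0 hr, 6 hr and 24 hr, and WM repopulating cells had 4 at each time. The GLOBAL experiment, also in mice of 2 months at the start of treatment, compared control microglia (n = 4) with GLOBAL repopulating microglia (n = 3). The latter came from mice with 7 days of PLX3397 and 28 days of recovery. The labels do not tie libraries to animals, and the methods of the study count n in mice. In the sort gate other CD11b+ cells can be present, and no group isolates microglia by a lineage label.

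The values were FPKM, read fragments scaled to gene length and to library size, so levels of different genes are given per length. The reads behind them, recovered from the steps between FPKM values, ranged from 4.57 to 10.5 M per library in SVZ tissue, from 4.95 to 11.02 M in the LPS time course and from 2.06 to 5.43 M in the GLOBAL experiment. Microglia markers (6 of 6 listed) summed to 157 to 214 FPKM in control SVZ, 13.2 to 16.9 after PLX3397 and 19.6 to 26.5 after recovery. In sorted cells the same 6 summed to 16619 to 19699 FPKM at 0 hr, 5436 to 7615 at 6 hr and 8551 to 11827 at 24 hr, over both origins. The 7 neutrophil markers were listed in all sorted cells, with sums that ranged from 431 to 15234 FPKM in the LPS time course and from 1266 to 22613 in the GLOBAL experiment. Control microglia replicate 2 at 6 hr stood apart from its group, with LPS response genes that summed to 42906 FPKM, and results without it are among those given as ranges below.

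A ribosome holds a single copy of nearly every ribosomal protein, and the cell keeps the proteins in matched amounts. Many of these messages start with a C followed by a run of pyrimidines, the 5′ terminal oligopyrimidine (TOP) tract, through which the mTOR pathway and the protein Larp1 regulate their translation. Immune cells that are activated raise their protein output, and microglia given LPS in the body change their messages within hours. Fewer cells with a message and less of the message per cell cannot be told apart in RNA from many cells.

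The starts of the messages show a feature that some members share. The RefSeq table of GRCm38.p6 held a start for 60 of the members, and 14 of these (23.3%) had a C at the annotated start followed by at least 4 pyrimidines, against 3.01% of the 27025 genes in that table. The starts of 6 members are printed here as examples with and without such a tract, with 10 bases before the annotated start and the first 20 bases of the first exon, which belong to the 5′ UTR. Capitals mark the pyrimidine tract in the first 4 and the letters CCGGAAG in the last 2, which have no tract at the annotated start. Rpl35a has 3 annotated starts and Rps27l has 2, of which 1 each is printed, and the other starts of Rpl35a have no such tract. A gene was counted where any of its annotated starts had the letters searched.
Rps6 (chr4:86857348-86857377, minus strand): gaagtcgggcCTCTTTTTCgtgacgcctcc
Rpl35a (chr16:33056472-33056501, plus strand): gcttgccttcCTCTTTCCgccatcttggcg
Rps18 (chr17:33955646-33955675, minus strand): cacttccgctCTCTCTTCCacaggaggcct
Rps27 (chr3:90213629-90213658, minus strand): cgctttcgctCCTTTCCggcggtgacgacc
Rps27l (chr9:66946076-66946105, plus strand): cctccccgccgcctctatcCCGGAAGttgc
Rpl11 (chr4:136053374-136053403, minus strand): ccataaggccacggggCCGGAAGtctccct

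Rps6 encodes the target of the S6 kinases, Rpl35a, Rps18 and Rps27 encode ribosomal proteins of either subunit, Rps27l is the close paralogue of Rps27, and Rpl11 encodes a large subunit protein known to bind Mdm2. Rpl11 was added to the printed set after the values were seen. The letters CCGGAAG, which ETS family factors are known to bind, were found on either strand between 250 bases before and 50 bases after the start in 25 of the 60 members (41.7%) and in 9.93% of all genes in the table. GGGCGG, the core of GC boxes, was in 35 members (58.3%) and 38.2% of all genes. AAGATGGC, a YY1 motif, was in 5 members (8.33%) and 3.19% of all, and TATAAA was in 7 members (11.7%) and 15.7% of all. These counts are of letters only, and the motifs were searched on both strands without regard to overlap between them.

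Many members have processed copies in the genome. In the GENCODE M21 transcripts of GRCm38, a median of 36.4% of the 43-base windows of a member (13.8% of the 150-base windows) were also found in another gene, and 24 members shared at least 50% of their 43-base windows. Rpl13 shared 77.2% of its 150-base windows with 4 pseudogenes, Rps6 shared 82.4% with 6, and Rps27a, Rpl12 and Rps12 shared 42.6%, 44.4% and 49.3%. Rps15 and Rps27l shared none of that length. By the methods of the study, reads with up to 10 matches were kept at alignment, and how such reads were then counted is not given in the sources used here, so levels of members with copies are uncertain. Rps4l is annotated as a transcribed processed pseudogene.

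Levels of the members spanned a wide range in every table. The median member had a mean of 15.7 FPKM in SVZ tissue, 28.0 in the LPS time course and 122 in the GLOBAL experiment. In SVZ tissue the highest were Rplp1 (238 FPKM), which encodes an acidic protein of the ribosomal stalk, Rpl4 (231), a protein of the exit tunnel, and Rps14 (227), and the lowest were Rpl17 (1.11), Rpl5 (1.69) and Rpl9 (2.27). In the LPS time course the order began with Rpl4 (326 FPKM), Rps14 (318) and Rplp1 (286) and ended with Rpl39 (2.43), Rpl39l (1.73) and Rpl3l (0.496), the last known as the paralogue of Rpl3 in striated muscle. In the GLOBAL experiment Rplp1 (871 FPKM), Rps29 (801) and Rpl41 (652) were highest and Rps15a (12.2), Rpl39l (2.37) and Rpl3l (1.11) lowest. Rpl3l was the member that did not reach the expression limit in the LPS time course, where it passed FPKM 1 in 2 libraries, both of control microglia at 24 hr. It was the only member of a table that was left untested. Rpl6l and Rpl32l, which are annotated as processed pseudogenes, were listed in the GLOBAL table alone.

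The order of levels differed between the 2 sets of sorted cells. The tables were normalized separately and have different gene numbers, so the ratios that follow describe levels and are not tested. Across the 80 members listed in both, levels of control microglia at 0 hr and of GLOBAL control microglia correlated with r = 0.59 and rho = 0.61, while levels of control microglia at 0 hr and of control SVZ correlated with r = 0.88 and rho = 0.86 (77 members, log2(FPKM + 1)). These are correlations across genes, which are not independent replicates. The median member was 6.05 times as high in GLOBAL controls, 26 members were at least 10 times as high, 16 were at most 2 times as high, and 7 were lower. Rps23 had a mean of 3.40 FPKM at 0 hr and 257 in GLOBAL controls, Rps29 had 10.8 and 709, and Rps6 had 4.28 and 124. Rps14 had 261 and 238 FPKM, and Rps27l had 109 and 44.2. The log2 ratio correlated with the share of 150-base windows found in other genes (r = 0.57, rho = 0.63 over 79 members). The median share was 39.3% where the ratio was at least 10 and 0.0% where it was at most 2. Rps6 and Rps23 shared 82.4% and 38.7% of these windows, but Rps29 only 9.13%. The part of multiple matches in these ratios was not tested.

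**Figure D1:**
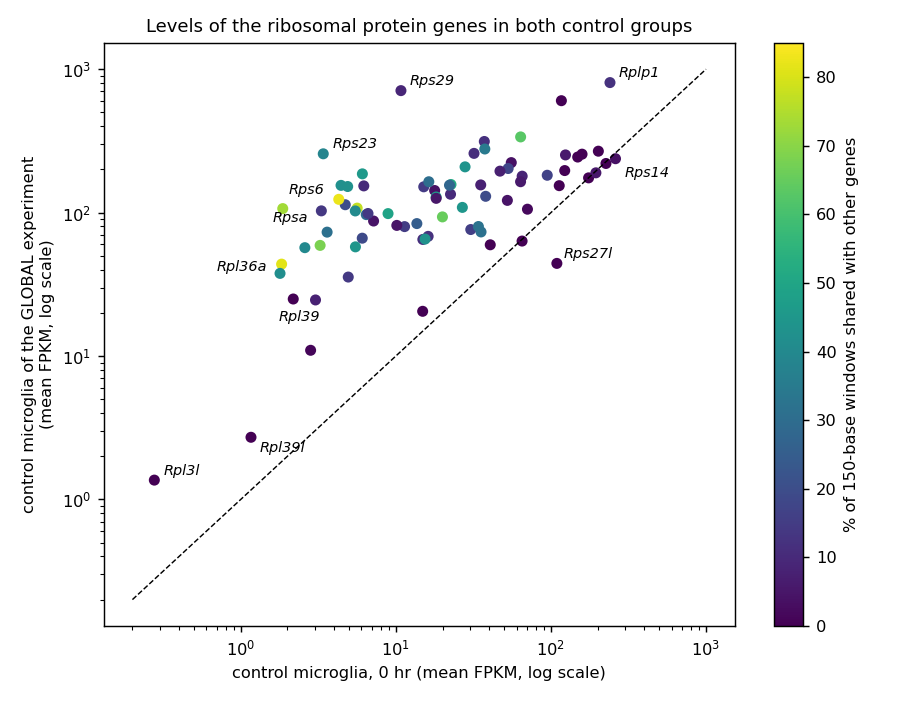
Mean FPKM of each member in control microglia at 0 hr (x axis, log scale, n = 3) and in GLOBAL control microglia (y axis, log scale, n = 4), coloured by the percentage of its 150-base windows that are found in other genes, with a dashed line of equal values. Most points lie above the line, Rps23 and Rps29 far above it, and Rps14 and Rps27l lie below it.

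Summed over the members, the share of a library's FPKM was between 0.641% and 0.815% in SVZ tissue. Control SVZ had a lowest, median and highest share of 0.641%, 0.735% and 0.815%, SVZ after PLX3397 had 0.719%, 0.750% and 0.753%, and SVZ after recovery had 0.686%, 0.709% and 0.740%. The 3 groups of SVZ tissue overlapped. In the LPS time course, control microglia had 0.694%, 0.736% and 0.766% at 0 hr, 0.989%, 1.11% and 1.15% at 6 hr and 1.06%, 1.18% and 1.27% at 24 hr. WM repopulating cells had 0.666%, 0.707% and 0.730% at 0 hr, 0.972%, 1.078% and 1.15% at 6 hr and 0.825%, 0.909% and 0.954% at 24 hr. All libraries after LPS were above all libraries at 0 hr, and at 24 hr all WM libraries were below all control libraries. The ratio of median shares to 0 hr was 1.505 at 6 hr and 1.599 at 24 hr in control microglia, and 1.53 and 1.29 in WM repopulating cells. GLOBAL controls had 2.17%, 2.72% and 3.20% and GLOBAL repopulating microglia 2.92%, 2.95% and 3.04%, which overlapped.

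**Figure D2:**
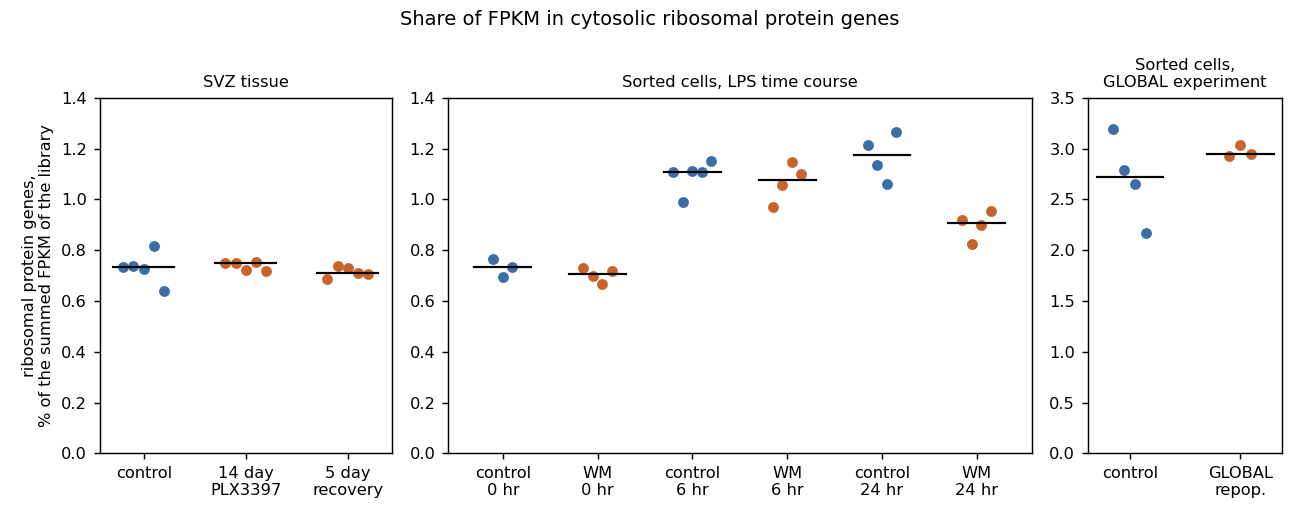
Share of the summed FPKM of each library that fell on ribosomal protein genes (y axis, percent), by group, with a point for each library and a line at the median of each group. The y axis of the GLOBAL experiment has another scale, and the shares after LPS lie above those at 0 hr in both origins.

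In SVZ tissue, 14 days of PLX3397 and the recovery from it changed no ribosomal protein gene past the threshold, although microglia markers changed. Of the 77 members tested, 0 were called by limma (adjusted p under 0.05 over all genes) after PLX3397 against control, where 1.26% of all tested genes were called, 4 had an unadjusted p under 0.05 (6.12% of all genes) and limma voom on recovered reads also called 0. After recovery, 0 were called against control (1.27% of all genes), with 8 members and 16.6% of all genes at unadjusted p under 0.05, and 0 against the PLX3397 group (0.325% of all genes), with 2 members and 16.5% of all genes at that limit, and voom called 0 in both. No member had groups without overlap in any of these comparisons, while 0.848% of all genes were higher and 1.92% lower in this way after PLX3397, 1.12% and 1.97% after recovery against control, and 2.11% and 1.42% after recovery against PLX3397. Member medians were -0.0025, -0.0019 and -0.026 on the log2 scale, and those of all tested genes were 0.0062, -0.0056 and -0.0059. In both comparisons with control, 5 of the 6 microglia markers fell.

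The member with the smallest adjusted p after recovery against control was Rpsa, whose protein is also known as the laminin receptor precursor. Its FPKM was 6.38, 6.70, 7.53, 7.14 and 5.36 in control SVZ, 5.80, 6.18, 4.75, 5.62 and 5.17 after PLX3397 and 5.49, 4.76, 5.80, 4.11 and 4.97 after recovery. The recovery libraries overlapped the control libraries at the low end of the latter (log2 difference -0.34 ± 0.10 SE, adjusted p = 0.15). Rpl28 had 7.40, 7.05, 5.38, 4.17 and 5.93 FPKM in control and 6.37, 7.83, 10.4, 9.38 and 12.01 after recovery (log2 difference 0.54 ± 0.17, adjusted p = 0.17). Rps13 had 2.49, 3.24, 5.34, 4.67 and 4.37 FPKM after PLX3397 and 2.23, 2.29, 2.96, 1.95 and 2.40 after recovery (-0.55 ± 0.17, adjusted p = 0.17), with overlap through a single library of the PLX3397 group. Rpl28 and Rps13 were named for their adjusted p after the values were seen. The stalk genes Rplp0, Rplp1 and Rplp2 had log2 differences between -0.16 and 0.12 in the 3 comparisons of SVZ tissue.

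In control microglia, LPS raised most ribosomal protein genes within 6 hr, of both subunits. Of 79 members tested, 62 rose and 0 fell at 6 hr against 0 hr (21.4% of all tested genes rose and 42.5% were called in either direction). The member median was 0.69 on the log2 scale, with quartiles of 0.45 and 0.92, against 0.01 for all tested genes. The large subunit had 36 of 47 members called and a median of 0.75, and the small subunit 26 of 32 and 0.62. In 60 members every library at 6 hr was above every library at 0 hr, as in 19.5% of all genes. The count was between 53 and 63 when single libraries were left out, voom called 54, and 43 members were called under all alternatives and in all fits with a library left out.

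The largest rises at 6 hr were of Rpl12, Rpl13 and Rps27a. Rpl12, whose protein sits at the base of the stalk, had 8.63, 3.19 and 4.64 FPKM in control microglia at 0 hr and 16.2, 18.9, 16.9, 24.9 and 18.9 at 6 hr (log2 difference 1.71 ± 0.24, adjusted p = 3.2e-06). Rpl13, a large subunit protein, had 5.53, 5.96 and 5.39 FPKM at 0 hr and 20.4, 31.1, 17.7, 21.6 and 14.2 at 6 hr (1.69 ± 0.19, adjusted p = 1.6e-07). Rps27a, made as a fusion with ubiquitin, had 4.71, 4.07 and 5.88 FPKM at 0 hr and 15.8, 16.2, 14.01, 18.5 and 19.8 at 6 hr (1.603 ± 0.17, adjusted p = 8.2e-08). In each of the 3 genes the lowest library at 6 hr was above the highest at 0 hr, and the mean rose more than 3 times. Fau, another ubiquitin-type fusion that the naming rule leaves out, rose from a mean of 12.04 to 18.01 FPKM (0.55 ± 0.15, adjusted p = 0.0040).

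Among the genes with known roles of their own, Rpsa rose from 3.20, 3.12 and 3.60 FPKM at 0 hr to between 7.42 and 10.2 in the 5 libraries at 6 hr (1.17 ± 0.17, adjusted p = 8.4e-06). Rps6 had 4.48, 3.33 and 5.03 FPKM at 0 hr and 6.83, 7.64, 5.98, 8.10 and 5.75 at 6 hr (0.58 ± 0.20, adjusted p = 0.021), a call that was kept in 6 of 8 fits with a library left out. Rpl11 had 5.51, 4.89 and 2.88 FPKM at 0 hr and 6.63, 7.91, 6.29, 9.85 and 7.39 at 6 hr (0.69 ± 0.23, adjusted p = 0.017). In each of these genes all libraries at 6 hr were above those at 0 hr. Rpl10a rose by 0.93 ± 0.18 and Rpl3, whose protein lies near the peptidyl transferase centre, by 0.96 ± 0.13. The stalk genes moved less. Rplp0 rose by 0.57 ± 0.12 (adjusted p = 0.00062) and Rplp2 by 0.42 ± 0.12 (adjusted p = 0.0068), and Rplp1 had a difference of 0.25 ± 0.12 (adjusted p = 0.10). Rpl13a, known for its release from the ribosome into the GAIT complex in myeloid cells given interferon-gamma, had 109, 108 and 121 FPKM at 0 hr and a mean of 132 at 6 hr (0.22 ± 0.11, adjusted p = 0.13).

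The 17 members that were not called at 6 hr included both abundant and scarce genes, Rplp1, Rpl41 and Rpl13a among them as well as Rpl39 and Rpl39l. At the lower end stood Rps27 (-0.19 ± 0.18, adjusted p = 0.41), Rpl15 (-0.07) and Rps4l (0.03 ± 0.24). Rps27 had 40.1, 30.8 and 41.5 FPKM at 0 hr and 32.6, 26.7, 33.0, 28.8 and 42.8 at 6 hr, with overlapping groups. Its paralogue Rps27l, known as a p53 target, had 114, 127 and 86.3 FPKM at 0 hr and 146, 122, 145, 158 and 178 at 6 hr (0.46 ± 0.15, adjusted p = 0.014). Across members, the log2 difference at 6 hr correlated weakly with the level (r = -0.26, rho = -0.29, n = 79 genes) and with the share of 150-base windows found in other genes (r = 0.36, rho = 0.37, n = 78 genes).

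At 24 hr the rise in control microglia was still present. Of 79 members, 56 were higher than at 0 hr and 0 lower (12.1% of all genes were higher and 21.3% called in either direction), with a median of 0.65 against 0.01 for all genes. In 59 members no library at 24 hr overlapped those at 0 hr, all higher, as in 15.8% of all genes. Leaving out single libraries gave 46 to 54 calls and voom gave 47. Rps27a had 15.8, 12.3, 16.5 and 21.1 FPKM at 24 hr (1.55 ± 0.18, adjusted p = 1.7e-06). Rpsa had 8.52, 9.53, 9.67 and 15.4 FPKM (1.42 ± 0.18, adjusted p = 6.9e-06). All libraries of both genes at 24 hr were above those at 0 hr. The stalk genes Rplp0, Rplp1 and Rplp2 rose by 0.79, 0.56 and 0.58, and Rpl13a by 0.34 ± 0.12 (adjusted p = 0.045, kept in 2 of 7 fits with a library left out). Rps27 (-0.46 ± 0.19, adjusted p = 0.089) and Rps4l (-0.50 ± 0.25, adjusted p = 0.16) had the lowest differences.

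Between 6 hr and 24 hr, control microglia changed few members. Of 79, 4 rose and 2 fell, where 28.3% of all genes were called in either direction, and the member median was -0.028 against 0.0029 for all genes. Rps27l reached 206, 200.1, 202 and 279 FPKM at 24 hr (0.56 ± 0.13, adjusted p = 0.0029). Rpl41, a very short protein of the large subunit, had a difference of 0.43 ± 0.13 (adjusted p = 0.014) and Rplp1 of 0.31 ± 0.11 (adjusted p = 0.037, kept in 3 of 9 fits with a library left out). The other way, Rpl13 fell to 9.94, 12.3, 13.9 and 9.03 FPKM (-0.81 ± 0.17, adjusted p = 0.0010), below all libraries at 6 hr, and Rpl18 fell from 41.8, 45.9, 40.2, 40.2 and 36.6 to 30.4, 30.1, 26.2 and 26.1 (-0.52 ± 0.11, adjusted p = 0.0010). When the trend of values with gene length was removed, 10 were called, 1 higher and 9 lower, and the median was -0.17.

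**Figure D3:**
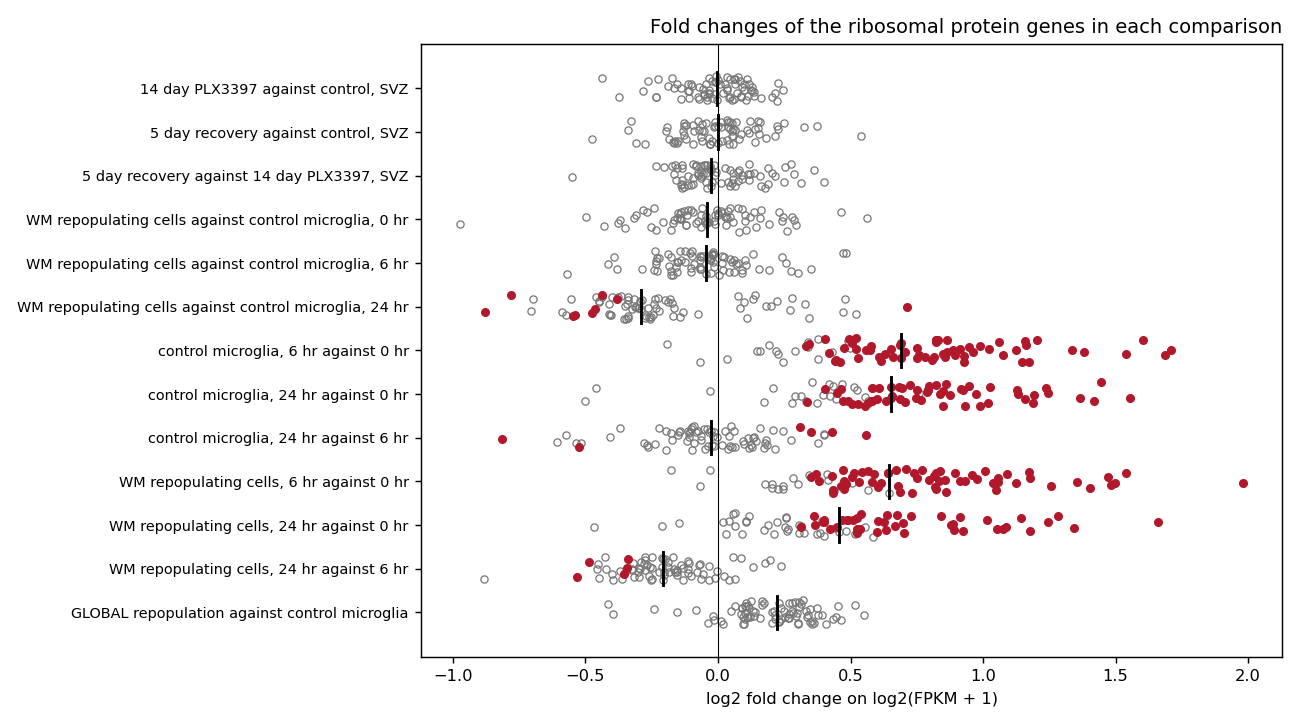
Log2 fold change on log2(FPKM + 1) of each member tested in each comparison (x axis), as filled red points where the adjusted p of limma was under 0.05 and open grey points otherwise, with a bar at the member median. In the comparisons of LPS with 0 hr, most but not all members sit to the right of 0, in control microglia and in WM repopulating cells. In SVZ tissue and the GLOBAL experiment no point is filled. Most points of the comparison between origins at 24 hr lie to the left of 0.

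LPS also raised most ribosomal protein genes in WM repopulating cells. At 6 hr against 0 hr, 61 of 79 members rose and 0 fell (19.3% of all genes rose, 38.8% were called), with a median of 0.64 against -0.0047 for all genes. In 56 members all libraries at 6 hr were above all at 0 hr, as in 19.5% of all genes. Of the members that rose, 54 also rose in control microglia, which is 88.5% of the 61 and 87.1% of the 62 called there. Since 78.5% of all members were called in control microglia, a large overlap follows from the counts, and it was not tested. Leaving out single libraries gave 55 to 61 calls, voom gave 57, and the level of neutrophil markers as a covariate gave 48.

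The largest rise was of Rps12, a protein of the small subunit. It had 4.19, 3.97, 7.44 and 1.49 FPKM in WM repopulating cells at 0 hr and 16.6, 17.3, 18.9 and 19.6 at 6 hr (1.98 ± 0.33, adjusted p = 4.2e-05). In control microglia it had 12.4, 5.33 and 9.02 FPKM at 0 hr and 22.5, 22.4, 15.5, 16.4 and 18.8 at 6 hr, so the origins overlapped at both times, and the difference at 0 hr was not called (-0.97 ± 0.36, adjusted p = 0.22). Counting error was wide for this gene, with 6 to 88 reads per library. Rpl13 rose from 4.52, 5.48, 3.29 and 4.94 FPKM to 16.1, 13.3, 16.8 and 14.05 (1.54 ± 0.18, adjusted p = 4.8e-07). Rpl12 rose by 1.499, Rpsa by 1.47 ± 0.17, Rps6 by 1.06 ± 0.19 and Rpl10a by 1.17 ± 0.18. Rplp0, Rplp1 and Rplp2 rose by 0.48, 0.37 and 0.43, and Rpl13a had a difference of 0.24 (adjusted p = 0.083). Rps27 again had a difference below 0 (-0.18, adjusted p = 0.45).

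At 24 hr, 43 of 79 members were higher than at 0 hr in WM repopulating cells and 0 lower (10.5% of all genes higher, 18.8% called), with a median of 0.46 against 0.02 for all genes. In 44 members no library overlapped those at 0 hr, all higher, as in 13.2% of all genes. Rps12 had 13.6, 11.9, 15.6 and 16.3 FPKM (1.66 ± 0.33, adjusted p = 0.00089), Rpl13 had 13.6, 11.8, 11.99 and 14.5 (1.34 ± 0.18, adjusted p = 1.4e-05), and Rpl35a had 18.8, 16.8, 14.3 and 15.1 after 4.99, 5.30, 6.02 and 8.37 at 0 hr (1.28 ± 0.17, adjusted p = 8.7e-06). Of the 43, 37 were also called in control microglia (86.0% of the 43 and 66.1% of the 56), where 70.9% of all members were called, and this overlap was not tested either. The 19 called in control microglia alone included Rpl29, Rpl41, Rplp1 and Rpl13a. Leaving out single libraries gave 33 to 42 calls and voom gave 38.

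From 6 hr to 24 hr, 5 of 79 members fell and 0 rose in WM repopulating cells, where 7.5% of all genes fell and 8.19% rose (15.7% in all). Among them were Rpl18 (-0.49 ± 0.12, adjusted p = 0.0061), Rpl29 (-0.53 ± 0.16, adjusted p = 0.025), Rps15 and Rps18. The median was -0.21 against 0.02 for all genes, and 14 members were lower at 24 hr without overlap and 0 higher, against 10.8% and 12.3% of all genes. Rpl18 had 35.3, 35.5, 40.2 and 34.2 FPKM at 6 hr and 25.97, 24.4, 23.9 and 28.3 at 24 hr. The count was 1 without replicate 3 of WM repopulating cells at 6 hr and 2 without replicate 2, 3 without replicate 1 or replicate 2 at 24 hr, 3 with voom and 8 when libraries were scaled over genes that are no members.

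Other parts of the protein synthesis machinery moved in the same time course, in lists chosen with earlier results of these data known. Among all tested genes, 21.4% rose at 6 hr and 12.1% at 24 hr in control microglia, and 19.3% and 10.5% in WM repopulating cells. Of 24 translation factors and other TOP messages, 21 rose in control microglia at 6 hr (median 0.73) and 15 at 24 hr (median 0.60), and 18 and 11 rose in WM repopulating cells (medians 0.61 and 0.36). Eef1a1, the elongation factor that brings tRNA to the ribosome, had means of 196 FPKM at 0 hr and 313 at 6 hr in control microglia (0.67), and Gnb2l1, the scaffold protein also called Rack1, had 61.9 and 162 (1.37, adjusted p = 7.7e-09). Of 41 ribosome biogenesis genes, 37 rose at 6 hr in control microglia, with a median of 1.25. The box C/D snoRNP genes Nop58 and Nop56 were among them, the former with means of 37.6 and 150.8 FPKM (1.98 ± 0.13). The median of these 41 was 0.43 at 24 hr with 18 higher and 1 lower, and 32 of the 41 fell from 6 hr to 24 hr. WM repopulating cells had 36 higher at 6 hr (median 1.19), 26 higher at 24 hr (median 0.60) and 21 lower from 6 hr to 24 hr. In WM repopulating cells 7.5% of all genes fell over that interval, and in control microglia 28.3% of all genes were called in either direction.

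The mitochondrial ribosome served as a comparison. Of 77 of its protein genes, 25 rose and 4 fell at 6 hr in control microglia (median 0.29) and 16 rose and 0 fell at 24 hr (median 0.27), with 27 and 3, and then 11 and 0, in WM repopulating cells (medians 0.27 and 0.15). The 11 of 77 at 24 hr in WM repopulating cells were near the 10.5% of all genes that rose there. Of 18 regulators of TOP messages and S6 kinases, 7 rose and 4 fell in control microglia at 6 hr. Among all genes 21.4% rose there and 42.5% were called in either direction. Larp1, which binds TOP messages, was one of those that rose, from a mean of 11.8 to 33.1 FPKM (1.402, adjusted p = 5.7e-08). Eif4ebp1, which encodes a repressor of translation that mTOR phosphorylates, rose from 61.8 to 187.3 (1.57). Of the 3 paralogues outside the naming rule, Rpl36al rose at 6 hr from a mean of 56.4 to 101.2 FPKM (0.83, adjusted p = 4.7e-06), and neither Rpl22l1 nor Rpl7l1 was called. As a check of the treatment, 14 of 15 LPS response genes rose at 6 hr in control microglia and 12 in WM repopulating cells. Over the same interval all 6 microglia markers fell and 4 of 5 monocyte markers rose in both origins, the sum of the latter going from 101 to 385 FPKM at 0 hr to 1150 to 3192 at 6 hr in WM repopulating cells and control microglia together. With the level of neutrophil markers as a covariate, 58 members rose at 6 hr and 56 at 24 hr in control microglia, 48 and 42 rose in WM repopulating cells, and 0 fell in each. The part of other cell types in the rise was not tested.

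**Figure D4:**
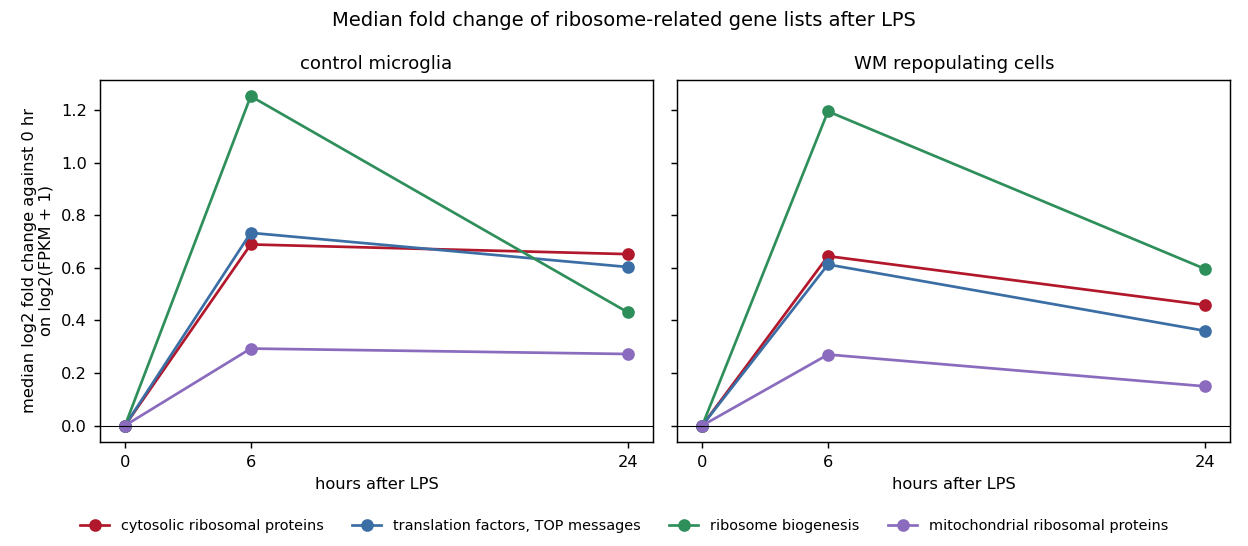
Median log2 fold change against 0 hr (y axis) of 4 gene lists at 6 hr and 24 hr after LPS (x axis), in control microglia and in WM repopulating cells. The ribosome biogenesis genes have the highest median at 6 hr and a lower one at 24 hr, and the median of the cytosolic ribosomal protein genes in control microglia is 0.69 at 6 hr and 0.65 at 24 hr.

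WM repopulating cells and control microglia did not differ in any member past the threshold at 0 hr or 6 hr. At 0 hr 0 of 79 were called by limma (1.21% of all genes), 8 had an unadjusted p under 0.05 (11.9% of all genes) and 0 were called by voom, with a median of -0.04 against 0.01 for all genes. Without overlap were 2 higher and 2 lower members, against 7.61% and 6.01% of all genes. At 6 hr 0 were called (0.323% of all genes), 4 had an unadjusted p under 0.05 (9.18% of all genes) and voom called 0, with a median of -0.05, and 2 were higher and 0 lower without overlap (2.11% and 1.66% of all genes). Rps27 was the member with the smallest adjusted p at 6 hr, with 48.1, 49.7, 43.9 and 41.2 FPKM in WM repopulating cells (0.48 ± 0.17, adjusted p = 0.29).

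At 24 hr, 8 of 79 members were lower and 1 higher in WM repopulating cells than in control microglia (2.29% of all genes lower, 1.68% higher and 3.97% called), 38 had an unadjusted p under 0.05, where 17.6% of all genes did, and 62 had a difference below 0. The median was -0.29, with quartiles of -0.40 and -0.15, against 0.02 for all genes, and it was -0.10 once the trend of values with gene length was removed. It was -0.28 in the large subunit (3 of 47 lower) and -0.32 in the small subunit (5 of 32 lower, 1 higher). In 23 members all WM libraries were below all control libraries and in 3 above, against 6.32% and 5.76% of all genes.

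Rpl29, which encodes a basic protein on the outside of the large subunit, had the largest difference at 24 hr. It had 26.5, 29.2, 26.7 and 29.99 FPKM in control microglia and 18.05, 16.2, 15.6 and 10.5 in WM repopulating cells (-0.88 ± 0.16, adjusted p = 0.0021). The groups did not overlap, and Rpl29 was called under all alternatives and in all fits with a library left out. At 0 hr it had 12.99, 11.04 and 10.1 FPKM in control microglia and 10.7, 13.8, 8.32 and 11.8 in WM repopulating cells, with overlap.

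Rps15 had 231, 224, 196 and 234 FPKM in control microglia and 168, 143, 163 and 136 in WM repopulating cells (-0.54 ± 0.11, adjusted p = 0.0056). Rpl7 (-0.55, adjusted p = 0.047), Rps19 (-0.47, adjusted p = 0.019), Rpl14 (-0.47, adjusted p = 0.036) and Rps18 (-0.44, adjusted p = 0.037) were also lower. Over 17 refits with another setting or without a library, the call was lost in 12 for Rpl7, 5 for Rps19, 9 for Rpl14, 10 for Rps18 and 2 for Rps15. The exception was Rps27, with 30.7, 24.8, 31.1 and 21.6 FPKM in control microglia and 49.6, 40.7, 35.0 and 55.6 in WM repopulating cells (0.71 ± 0.18, adjusted p = 0.021), a call kept in 4 of 8 fits with a library left out. Rps27l went the other way without being called (-0.45 ± 0.14, adjusted p = 0.075). Rplp0, Rplp1, Rplp2, Rpsa, Rps6 and Rpl13a had differences between -0.44 and -0.25, none called, and Rpl10a had 0.08. Among the translation factors, 4 of 24 were lower and 0 higher (median -0.15), Gnb2l1 (-0.48, adjusted p = 0.023) and Eef1g (-0.71, adjusted p = 0.0043) among them. The biogenesis genes had 0 of 41 called and a median of 0.08.

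The counts at 24 hr rested on several libraries and on the processing. They were 4 without control replicate 1, without control replicate 4 or without WM replicate 2, and 5 without WM replicate 1. With the length trend removed 5 were called (3 higher, 2 lower), and with only these 2 groups in the fit 2 were called, both lower. Neutrophil markers summed to 6308 to 15234 FPKM in control microglia and 3138 to 7123 in WM repopulating cells at 24 hr, with 0 of 7 called and a median of -1.22, and with their level as a covariate 8 members were called.

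**Figure D5:**
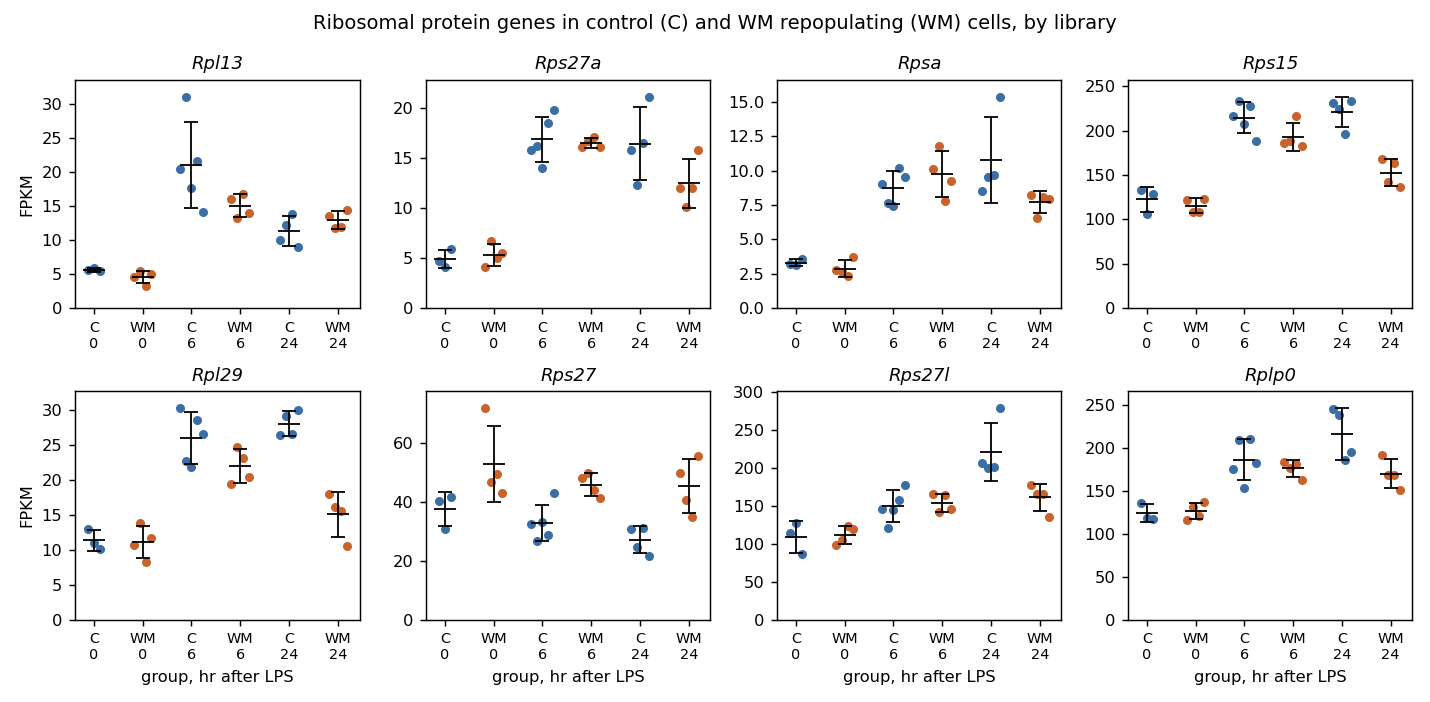
FPKM (y axis) of 8 ribosomal protein genes in control microglia (C) and WM repopulating cells (WM) at 0, 6 and 24 hr after LPS (x axis), with a point for each library, a line at the mean and bars of 1 SD. Rpl13, Rps27a and Rpsa are higher after LPS in both origins, Rps15 and Rpl29 are lower in WM repopulating cells at 24 hr, and Rps27 is higher there.

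Whether the response to LPS itself differed between origins was tested as the difference of the 2 changes from 0 hr. At 6 hr 0 of 79 members were called by limma (0.0237% of all genes), 2 had an unadjusted p under 0.05 (7.2% of all genes) and voom called 0, with a median difference of -0.02 (-0.096 with the length trend removed). At 24 hr 0 were called (0.0867% of all genes), with a median of -0.20 against 0.01 for all genes (-0.085 with the length trend removed), 20 members had an unadjusted p under 0.05, where 8.71% of all genes did, and voom called 0, with 13 at unadjusted p under 0.05. Rpl29 had a change from 0 hr of 1.24 ± 0.17 in control microglia and of 0.40 ± 0.16 in WM repopulating cells, a difference of -0.84 ± 0.24 (adjusted p = 0.21). The difference of Rps15 was -0.46 ± 0.16 (adjusted p = 0.36). A smaller rise in WM repopulating cells at 24 hr was therefore not shown by this test for any named gene.

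In the GLOBAL experiment, repopulated microglia and controls did not differ in any member past the threshold. Of 82 members, 0 were called by limma and 6 had an unadjusted p under 0.05, while 0.0% of the 16651 genes tested were called and 9.03% had an unadjusted p under 0.05. With voom 0 members were called and 11 had an unadjusted p under 0.05. The median was 0.22 against 0.01 for all genes. It was 0.14 without control replicate 3 and 0.31 without control replicate 1. After quantile normalization it was 0.14, and with neutrophil markers as a covariate 0.31. In the reported fit 74 members had a difference above 0, and 8 were higher and 0 lower without overlap (5.83% and 4.14% of all genes). Rps18 had 155, 180.1 and 195 FPKM in repopulated microglia and 153, 148, 110.2 and 108 in controls (0.45 ± 0.16, adjusted p = 0.48). Rps27 had 332, 337 and 405 FPKM and 288, 300.3, 269.6 and 253 (0.36 ± 0.13, adjusted p = 0.48), and Rpsa had 81.5, 95.7 and 83.2 and 109, 109.6, 94.1 and 98.8 (-0.24 ± 0.13, adjusted p = 0.59). The groups of Rps18 and Rps27 did not overlap and those of Rpsa did. Neutrophil markers summed to 2102 to 22613 FPKM in controls and 1266 to 4572 in repopulated microglia, with a median of -1.31 over 7 markers, and their part was not tested apart from the fit with their level as a covariate, where 0 members were called.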

How the data were processed

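The members and the gene lists were chosen with earlier results of these data known. According to the methods, the authors made cDNA with Smart-seq2 and libraries with Nextera, aligned reads with STAR, counted them with featureCounts and deposited FPKM per gene in 3 tables, which were normalized separately, so tests were made only within a table and levels set across tables are descriptions. The labels name mm10 and describe another library protocol. FPKM scales each gene to its length and each library to a total. The reads recovered were from 0.903 (GLOBAL control replicate 3) to 1.145 (control microglia replicate 2 at 6 hr) times that total. The values therefore hold a further scaling between libraries, and a difference is relative to the rest of the library. Each library was assigned by its title and column name.

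Values were tested as log2(FPKM + 1) with limma 3.58.1 in R 4.3.3 (eBayes with trend, 2-sided, all groups of a table in a single fit) over the genes that reached FPKM 1 in 3 or more libraries of a table, and a gene was called at a Benjamini-Hochberg adjusted p under 0.05. Log2 differences on this scale understate the change of low genes and are given with their SE. The FPKM tables gave whole reads per gene for 99.99% of rows, and limma voom on these reads was an added alternative. Within groups, libraries correlated with r from 0.937 to 0.994 and 0 pairs held identical values. Other alternatives were a pseudocount of 0.1, no expression limit, other scalings, removal of the length trend (lowess, span 0.3), a replicate block, fits of only the groups compared, neutrophil markers as a covariate and leaving out each replicate. Named members are the 3 called with the largest change in each direction of a comparison, the 3 highest and 3 lowest by level, and a list of genes with known roles and paralogues, of which some are not reported here. Start sequences and motifs come from RefSeq of GRCm38.p6 and window matches from GENCODE M21. Scripts were tested on simulated data.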

Additional observations from a re-analysis of the deposited data

Results flagged for a closer look

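Of 196 groups of 4 or 5 libraries checked, 9 held a library whose gap to its nearest neighbour was large against the range of its group, which chance alone gives in about 1 of 20 groups. In SVZ after PLX3397, the lowest Rplp0 value was 65.9 FPKM, where the other 4 were between 72.6 and 74.2, and the highest Rpl17 value was 1.38. In control microglia at 6 hr, the lowest member share was 0.989%, in replicate 2, whose LPS response genes also stood apart, and the lowest Rpl41 value was 123 FPKM. In WM repopulating cells at 6 hr the highest Rps15 value was 216 FPKM. In control microglia at 24 hr the highest Rpsa value was 15.4 FPKM, the highest Rps27l value 279 and the lowest Rpl41 value 140.1. In WM repopulating cells at 24 hr the lowest Rpsa value was 6.54 FPKM. The differences of LPS responses between origins were tested, and no member passed.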

How the results depend on the processing

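Across the alternatives, 257 recomputed counts of called members stayed within 1.5 times the reported count and 17 did not. Among the 257 are counts of 0 that stayed at 0, which say nothing of the comparisons with calls. Of the medians, 262 moved by less than the spread between replicates and 12 by more. Named genes kept their call in 1481 refits and lost it in 168, and 0 changed direction. With the length trend removed, the medians were -0.093 (recovery against control SVZ), -0.11 (recovery against PLX3397), 0.030 (WM against control at 0 hr), -0.10 (at 24 hr), 0.56 (control microglia, 24 hr against 0 hr), -0.17 (24 hr against 6 hr), 0.53 and 0.40 (WM, 6 hr and 24 hr against 0 hr), and -0.096 and -0.085 (differences of responses), and the counts were 5 (WM against control at 24 hr), 10 (control, 24 hr against 6 hr) and 3 (WM, 24 hr against 6 hr). The WM median at 6 hr was 0.74 with voom and 0.74 with a pseudocount of 0.1. WM against control at 24 hr gave 2 calls with only these groups fitted. WM at 24 hr against 6 hr gave 8 calls when scaled over genes that are no members, 3 with voom and 3 with neutrophil markers as a covariate, which also gave 1 call for recovery against control SVZ. Without the 20 most abundant other genes, member shares had medians of 0.836% in SVZ (0.730% with them), 1.25% (0.9803%) and 3.58% (2.92%). Leaving out 1 library gave 0 to 1 calls for recovery against control SVZ (1 without recovery replicate 3), 4 to 9 for WM against control at 24 hr and 1 to 7 for WM at 24 hr against 6 hr, with the libraries named above.

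The replicate numbers do not mark shared animals or days in the labels, and same-numbered libraries did not deviate together (r from -0.19 to 0.27 over 55 pairs of the LPS time course, where 10 correlated best with their own number, from -0.15 to 0.49 over 15 pairs of SVZ, and from 0.056 to 0.137 over 3 pairs of the GLOBAL experiment). With the number as a block, 7 members were called in WM against control at 24 hr, 56 and 53 in control microglia at 6 hr and 24 hr against 0 hr, and 59 and 40 in WM repopulating cells. Libraries of 2.06 to 11.02 M reads limit members with few reads, such as Rpl13 (20 to 155 reads per library of the time course) and Rps12 (6 to 88).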
